A study of Homo sapiens with 12 samples.

Results

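Small nucleolar RNA (snoRNA) host genes are genes whose introns carry snoRNAs. The 9 noncoding hosts described here, GAS5, SNHG1, SNHG5, SNHG6, SNHG7, SNHG8, SNHG12, SNHG15 and SNHG16, were taken by gene name from a list of hosts said to begin with a 5′ terminal oligopyrimidine (TOP) tract. Each name matched 1 of the 58735 genes of the count table, and the rule itself uses no measured value, although the genes were chosen with earlier results of these data known. RNA-seq was performed on K562 cells, an erythroleukemia line with the BCR-ABL1 fusion, against which nilotinib, a tyrosine kinase inhibitor, was developed. Hemin drives these cells to make hemoglobin, and the study asked how nilotinib acts on that differentiation. There were 12 libraries in 4 groups of 3. Mock DMSO received neither agent and mock nilotinib received 0.1 μM nilotinib. Hemin DMSO received 50 μM hemin for 24 h, and hemin nilotinib received 0.1 μM nilotinib ahead of 50 μM hemin for 24 h. By the study's text, pretreatment with DMSO or nilotinib lasted 24 h. All 4 groups are the same line and carry the same fusion, so no group stands for normal erythroid cells. The study's sources differ on whether the mock cells were collected before or after the 24 h that the hemin cells spent with hemin. Hemin and any added time in culture therefore cannot be told apart where hemin and mock groups are compared. The same holds for any longer time since nilotinib was added, also where the nilotinib effect is compared with and without hemin. The labels call the 3 samples of a group biological replicates without saying that they were separate cultures, and p-values measure the spread between these samples.

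A snoRNA host is transcribed and spliced like other genes, and its snoRNAs are trimmed out of the removed introns. Box C/D snoRNAs guide the methylation of ribosomal RNA and box H/ACA snoRNAs guide its pseudouridylation. In these hosts the joined exons code for no known protein. A TOP tract, a run of pyrimidines that begins with C at the very start of the RNA, is also the hallmark of ribosomal protein mRNAs and ties their translation to growth signals through mTOR. Translation of the short reading frames of such hosts exposes the spliced RNA to nonsense-mediated decay, which is why GAS5 (growth arrest-specific 5) accumulates in cells that stop growing. RNA-seq of this kind is made to count host exons and not the short snoRNAs. The annotated exons, however, join transcripts that retain introns. They cover snoRNA positions over 15.3% of the exon length of SNHG1 and 14.2% of that of SNHG8. A level here is therefore that of host RNA, in which spliced and intron-retaining forms cannot be told apart.

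The starts of the hosts are shown because the TOP tract was the reason for grouping them. In GENCODE 29 (GRCh38), a transcript was counted as having a TOP start where its first base was C and at least 4 further C or T bases followed. Such a start was found for at least 1 annotated transcript of 7 of the 9 hosts. At the start given by RefSeq (GRCh38.p14), which was held for 7 hosts, only SNHG5 (5 bases) and SNHG12 (11 bases) met it, and the opening run was 4 bases for SNHG7, 3 for SNHG1, 1 for SNHG8 and 0 for GAS5 and SNHG16. It was found for 13.1% of the 20808 tested genes with a transcript sequence, 83.5% of the 79 cytosolic ribosomal protein genes and 5.99% of 3553 tested long noncoding genes. Genes with many annotated transcripts have more chances to hold one, and by transcript the shares were 15.9% for the hosts and 2.61% for the tested genes. For 8 hosts, all but SNHG6, the first 30 bases of the GENCODE transcript with the longest opening run of pyrimidines are written 5′ to 3′ on the transcribed strand, with the opening run in capitals.
GAS5: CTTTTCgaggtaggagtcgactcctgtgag
SNHG1: CTCCTgtctgcaggatttacgcgcacgttg
SNHG5: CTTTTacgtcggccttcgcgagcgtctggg
SNHG7: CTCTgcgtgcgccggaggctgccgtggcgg
SNHG8: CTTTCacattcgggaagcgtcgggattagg
SNHG12: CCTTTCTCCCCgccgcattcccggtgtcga
SNHG15: CCgccatcctgggccccacgtgttgcctga
SNHG16: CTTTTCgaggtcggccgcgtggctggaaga
They lie at chr1:173867960-173867989 (GAS5, minus strand), chr11:62855450-62855479 (SNHG1, minus), chr6:85678704-85678733 (SNHG5, minus) and chr9:136728155-136728184 (SNHG7, minus). The others lie at chr4:118278758-118278787 (SNHG8, plus), chr1:28581844-28581873 (SNHG12, minus), chr7:44986541-44986570 (SNHG15, minus) and chr17:76557769-76557798 (SNHG16, plus). The RefSeq starts of SNHG8 (position 118278762) and SNHG16 (76557764) lay a few bases from the GENCODE starts shown. Those of SNHG1 (62855885) and GAS5 (173869045) lay well upstream of the GENCODE starts shown. SNHG12 had the longest opening run, 11 bases, in 4 of 17 transcripts with a TOP start. GAS5 had a TOP start in 6 of 29 transcripts, SNHG5 in 3 of 23, SNHG6 in 3 of 5, SNHG16 in 2 of 8, SNHG8 in 1 of 5 and SNHG1 in 1 of 25. The opening run of SNHG7 stopped at 4 bases and that of SNHG15 at 2, so the label of a TOP start was not met by the annotation of these 2 genes. Annotated starts are not measured starts, and the reads behind these counts were not examined for them.

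The hosts are listed as GAS5 (ENSG00000234741), SNHG1 (ENSG00000255717), SNHG5 (ENSG00000203875), SNHG6 (ENSG00000245910), SNHG7 (ENSG00000233016), SNHG8 (ENSG00000269893), SNHG12 (ENSG00000197989), SNHG15 (ENSG00000232956) and SNHG16 (ENSG00000163597). In the annotation, SNHG1, SNHG5, SNHG6 and SNHG16 hold box C/D snoRNA rows on their own strand, and GAS5 is a known box C/D host. SNHG7, SNHG8 and SNHG15 hold box H/ACA rows, and SNHG12 holds both kinds. Of 23 snoRNA rows within the 9 spans, 21 had no count in any library. SNORD99 inside SNHG12 had 6 to 26 counts per library and did not pass the test in any comparison, and SNORD1B inside SNHG16 had 1 to 10. On the opposite strand, FAM69B covered 25.2% of the exon length of SNHG7, the readthrough gene AC015802.6 30.6% of that of SNHG16 and MCMDC2 29.3% of that of SNHG6. Whether the counting used strand is not given in the sources used here, and without strand the reads of such partners cannot be told apart. AC015802.6 and MCMDC2 had at most 48 and 23 counts in a library, far below their partners, whereas FAM69B had 301 to 1150 counts beside 737 to 2052 for SNHG7. None of the 150-base words of the 9 hosts occurred in a transcript of another gene.

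Total counts were 33457078 to 50506990 per library, and the 9 hosts together held 0.0669 to 0.121% of them. All 9 passed the filter on low counts, with 161 to 18915 counts per gene and library, and log2 levels of replicates correlated across genes at 0.952 to 0.996. Hemin nilotinib held the least alike pair, replicates 1 and 3, and hemin DMSO replicate 1 had the lowest summed level of the hosts in its group, 873 in normalised counts (CPM, scaled by TMM) against up to 1330. The 5 markers of K562 and erythroid cells GATA1, TAL1, HBG1, HBG2 and TFRC were all present, and their summed level was 1030 to 1750 CPM in mock DMSO, 5250 to 6370 in mock nilotinib, 919 to 1090 in hemin DMSO and 3160 to 5970 in hemin nilotinib. Nilotinib raised 4 of the 5 without hemin and 5 of 5 with hemin. The 5 markers of other cells summed to 69.7 to 75.7 CPM in mock DMSO, 50.2 to 67.2 in mock nilotinib, 65.5 to 88.9 in hemin DMSO and 44.1 to 51.3 in hemin nilotinib. Among these EPCAM lay between 27.7 and 65.5 CPM and COL1A1 between 6.65 and 24.7, while CD3E, ALB and MS4A1 reached at most 1.19, and MS4A1 was at 0 in every library of 3 groups. The part of these markers in the results below was not tested. In these bulk libraries fewer cells of a type and less RNA per cell cannot be told apart.

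Levels were first compared between hosts per kilobase of annotated exon length, in mock DMSO (n = 3, mean ± SD). GAS5 stood at 83.5 ± 16.5 CPM per kb, SNHG5 at 73.3 ± 9.67, SNHG6 at 60.7 ± 6.08, SNHG8 at 53.3 ± 4.16 and SNHG1 at 52.1 ± 6.77. The libraries of each neighbouring pair among these 5 overlapped, so their order was not resolved. SNHG16 followed at 20.7 ± 3.83 CPM per kb, below every SNHG1 library and above every SNHG7 library. SNHG7 at 7.6 ± 1.2, SNHG15 at 7.06 ± 0.641 and SNHG12 at 6.71 ± 0.857 CPM per kb overlapped one another as neighbours. The upper 5 genes, SNHG16 and the lower 3 kept these positions in all 4 groups. Within the upper 5, SNHG6 had the highest mean in both nilotinib groups, at 74.8 ± 6.1 and 63.5 ± 1.36 CPM per kb, with no overlap with GAS5. In mock nilotinib it overlapped SNHG5, whose replicate 3 stood at 80.9 CPM per kb. SNHG15 was last in mock nilotinib at 1.46 ± 0.274 CPM per kb and in hemin nilotinib at 2.04 ± 0.679, each time below every library of SNHG12. The exon length joins all annotated transcripts, including those that retain introns, and understates the level per kb of a gene that uses few of them.

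**Figure D1:**
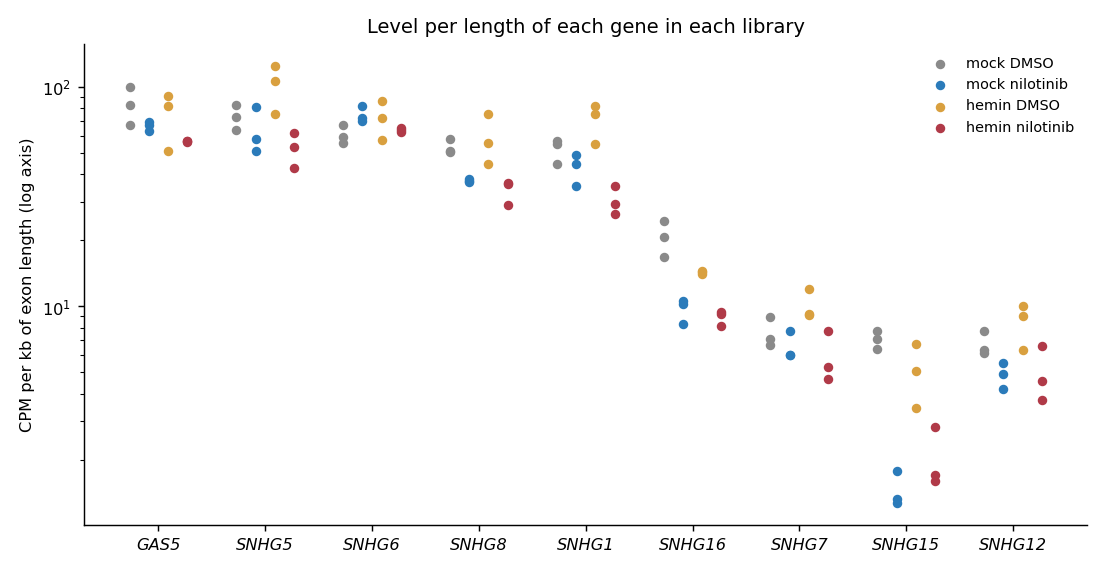
Level of each host in CPM per kilobase of exon length (vertical log axis), with 1 point per library and the 4 groups side by side in colour, ordered by the mock DMSO mean. GAS5, SNHG5, SNHG6, SNHG8 and SNHG1 form an upper band, SNHG16 lies between, and SNHG15 falls from 7.06 in mock DMSO to 1.46 in mock nilotinib.

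Among the box C/D hosts, GAS5 stood at 244, 302 and 364 CPM in mock DMSO, 244, 229 and 252 in mock nilotinib, 185, 332 and 299 in hemin DMSO and 207, 206 and 204 in hemin nilotinib (replicates 1, 2 and 3). Its group means fell in the order mock DMSO, hemin DMSO, mock nilotinib and hemin nilotinib, and the libraries of the first 3 overlapped. Hemin DMSO replicate 1 was the lowest GAS5 value of all 12 libraries while its replicates were among the highest. SNHG1, the host of SNORD22 and its neighbours, had 167, 207 and 214 CPM in mock DMSO and 133, 168 and 184 in mock nilotinib. In hemin DMSO it had 208, 284 and 307 CPM, and in hemin nilotinib 133, 99.3 and 110. SNHG1 was thus highest with hemin alone and lowest with both agents, and these groups did not overlap.

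SNHG5, the host of SNORD50 snoRNAs, followed the same order of groups as SNHG1. It had 179, 204 and 233 CPM in mock DMSO, 144, 162 and 227 in mock nilotinib, 211, 351 and 299 in hemin DMSO and 120, 149 and 172 in hemin nilotinib. Every library of hemin nilotinib lay below every library of both DMSO groups. SNHG6 lay within 69.2 to 108 CPM in all 12 libraries, and its highest group mean was that of mock nilotinib, 93.2 ± 7.6 CPM (SD, n = 3). SNHG16, the host of the SNORD1 family, had 90, 111 and 131 CPM in mock DMSO, 76.5, 77.6 and 75.7 in hemin DMSO, 44.5, 57 and 55.2 in mock nilotinib and 50.3, 49.5 and 43.7 in hemin nilotinib. Its groups separated into mock DMSO, then hemin DMSO, then both nilotinib groups, which overlapped each other.

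Among the hosts with box H/ACA snoRNAs, SNHG15 had the widest range. It stood at 28.1, 23.4 and 25.8 CPM in mock DMSO, 12.6, 24.5 and 18.5 in hemin DMSO, 10.3, 6.2 and 5.82 in hemin nilotinib and 6.47, 4.84 and 4.64 in mock nilotinib. In raw counts this was 982 to 1562 in mock DMSO and 161 to 255 in mock nilotinib. The mean of mock nilotinib was 20.6% of that of mock DMSO, and no library with nilotinib reached any library without it. SNHG8 had 47.3, 46.6 and 53.6 CPM in mock DMSO, 35.3, 34.7 and 34.1 in mock nilotinib, 41, 69.7 and 51.5 in hemin DMSO and 33.9, 33.5 and 26.9 in hemin nilotinib. For SNHG8, and for SNHG16, all 6 libraries with nilotinib likewise lay below all 6 without. SNHG7 ranged from 20.2 to 52 CPM and was highest in hemin DMSO, at 43.9 ± 7.08 CPM. SNHG12 ranged from 16 to 43.3 CPM and was also highest in hemin DMSO, at 36.3 ± 8.45 CPM, with overlap of every pair of neighbouring groups.

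**Figure D2:**
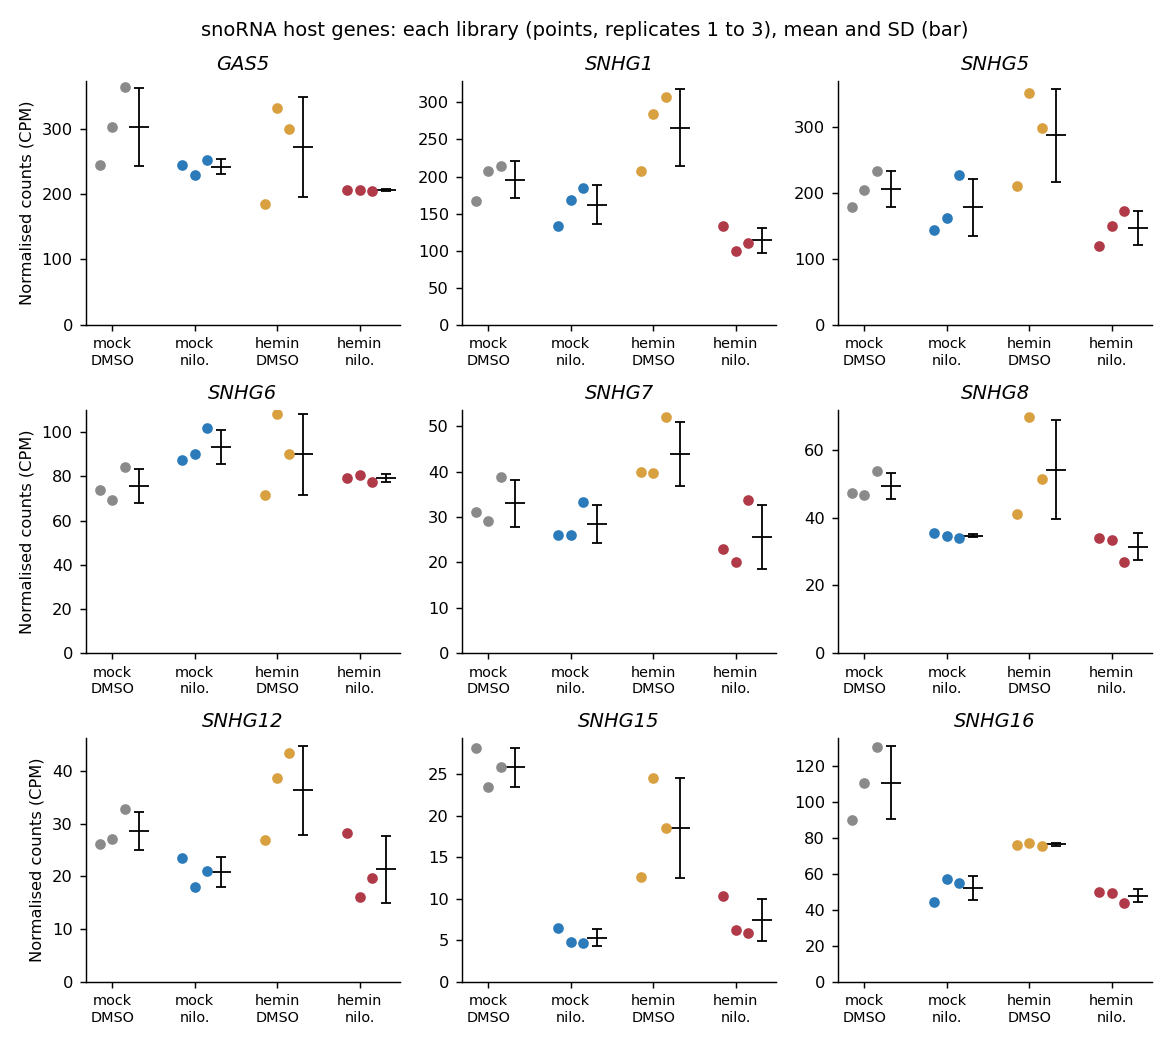
Normalised counts (CPM, vertical axes starting at 0) of each host in the 12 libraries, with points for replicates 1 to 3 of each group and a bar for the mean with its SD (n = 3). SNHG15 and SNHG16 are lowest in the nilotinib groups, and hemin DMSO replicate 1 lies below its replicates for GAS5, SNHG1, SNHG5, SNHG6, SNHG8, SNHG12 and SNHG15.

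The first comparison asks what nilotinib does without hemin (mock nilotinib against mock DMSO). SNHG15, SNHG16 and SNHG8 fell and the other 6 hosts did not pass the test, so 3 of 9 were lower and 0 higher, where 42.5% of all genes tested were called, 21.8% lower and 20.7% higher. All values in this and the following comparisons are log2 fold changes ± SE from edgeR's quasi-likelihood test over all 12 libraries, with p adjusted by Benjamini-Hochberg over 20821 genes. SNHG15 fell by 2.27 ± 0.26 on the log2 scale, 4.84-fold (adjusted p = 2.97e-06). SNHG16 fell by 1.09 ± 0.14, 2.12-fold (adjusted p = 1.67e-05), and SNHG8 fell by 0.5 ± 0.17, 1.42-fold (adjusted p = 0.0215). The 95% interval of SNHG15, -2.82 to -1.73, lay wholly below that of SNHG16, -1.39 to -0.78, and of every other gene among the 9.

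Of the 6 that did not pass, GAS5 had a log2 fold change of -0.33 (95% interval -0.72 to 0.06), SNHG1 of -0.27 (-0.64 to 0.09), SNHG5 of -0.21 (-0.64 to 0.21) and SNHG7 of -0.21 (-0.62 to 0.19). SNHG12 had -0.46 with an adjusted p of 0.0881 by edgeR, and its groups did not overlap. SNHG6 had the only positive value, 0.3 (adjusted p = 0.0999 by edgeR), with every mock nilotinib library above every mock DMSO library. At an unadjusted p under 0.05 SNHG6 was the 1 host higher, and with DESeq2 and limma the count of hosts higher was 0. SNHG6 passed with upper-quartile factors (0.41, adjusted p = 0.0247 by edgeR), where 42.7% of all genes were called, 57% of these higher. It also passed within the 6 libraries without a block (0.3, adjusted p = 0.0184 by edgeR). In that fit GAS5 (-0.32, adjusted p = 0.0464 by edgeR) and SNHG12 (-0.46, adjusted p = 0.00924 by edgeR) were lower, and 57.2% of all genes were called. Groups did not overlap for 4 hosts in the lower direction and 1 in the higher, against 31.1% and 29.8% of all genes (61% in either direction). The median over the 9 hosts was -0.33, against 0 over all genes tested and 0.4 over the 3553 long noncoding genes tested. The call of SNHG8 was lost without mock DMSO replicate 3 (adjusted p = 0.0759 by edgeR), without mock nilotinib replicate 2 (0.0525) or 3 (0.0551) and with upper-quartile scaling (0.0545). The main test did not use the replicate numbers. A fit within the 6 libraries alone with the replicate number as a block was chosen after the data were seen. In it 7 hosts were lower and SNHG6 was higher, where 58.9% of all genes were called.

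The comparison of nilotinib in cells with hemin (hemin nilotinib against hemin DMSO) was the one in which most hosts changed. SNHG1, SNHG5, SNHG7, SNHG8, SNHG12, SNHG15 and SNHG16 fell, 7 of 9, and GAS5 and SNHG6 did not pass the test. Over all genes 64.2% were called, 31.8% lower and 32.4% higher. SNHG15 fell by 1.32 ± 0.25 or 2.5-fold (adjusted p = 0.000235 by edgeR) and SNHG1 fell by 1.22 ± 0.17 or 2.33-fold (adjusted p = 1.47e-05 by edgeR), values closer to each other than either SE, so their order was not resolved. SNHG5 fell by 0.96 ± 0.2, 1.95-fold (adjusted p = 0.000605 by edgeR). SNHG7, SNHG8 and SNHG12 fell alike, by 0.78 ± 0.19, 0.78 ± 0.17 and 0.77 ± 0.21, and SNHG16 by 0.68 ± 0.14, with adjusted p of 0.000637 to 0.00433 by edgeR. FAM69B, which overlaps SNHG7 on the opposite strand, had -0.91 here (adjusted p = 8.56e-05 by edgeR) and -0.51 without hemin (adjusted p = 0.0125 by edgeR), and its part in the fall of SNHG7 was not tested.

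GAS5 had a log2 fold change of -0.41 (95% interval -0.8 to -0.02, adjusted p = 0.0643 by edgeR), and SNHG6 of -0.18 (-0.48 to 0.12). GAS5 did pass with DESeq2 (-0.45, adjusted p = 0.0413 by DESeq2) and with RLE factors (-0.45, adjusted p = 0.0428 by edgeR). With RLE factors 8 of 9 hosts were lower, where 64.3% of all genes were called, 48.6% of these higher. Without hemin DMSO replicate 1, the library with low GAS5, GAS5 fell by 0.62 (adjusted p = 0.00298 by edgeR). SNHG6 then fell by 0.32 (adjusted p = 0.0473 by edgeR), so that 9 of 9 hosts were lower. In that fit 60.4% of all genes were called, 49.6% of these higher. Without hemin DMSO replicate 2 neither host passed, at -0.24 for GAS5 and -0.03 for SNHG6, and 7 of 9 hosts were lower. Libraries did not overlap for 6 hosts, all lower, against 32% of genes in that direction and 63.5% in either. No host was higher at an unadjusted p under 0.05, or with DESeq2 or limma. The median over the hosts was -0.78, against 0.02 over all genes tested, -0.17 over protein-coding genes and 0.63 over long noncoding genes, so the hosts lay on the other side of 0 from the class of genes they are annotated in. With library totals alone as scaling the median of all genes moved to 0.199, and the hosts kept 7 falls with a median of -0.6.

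**Figure D3:**
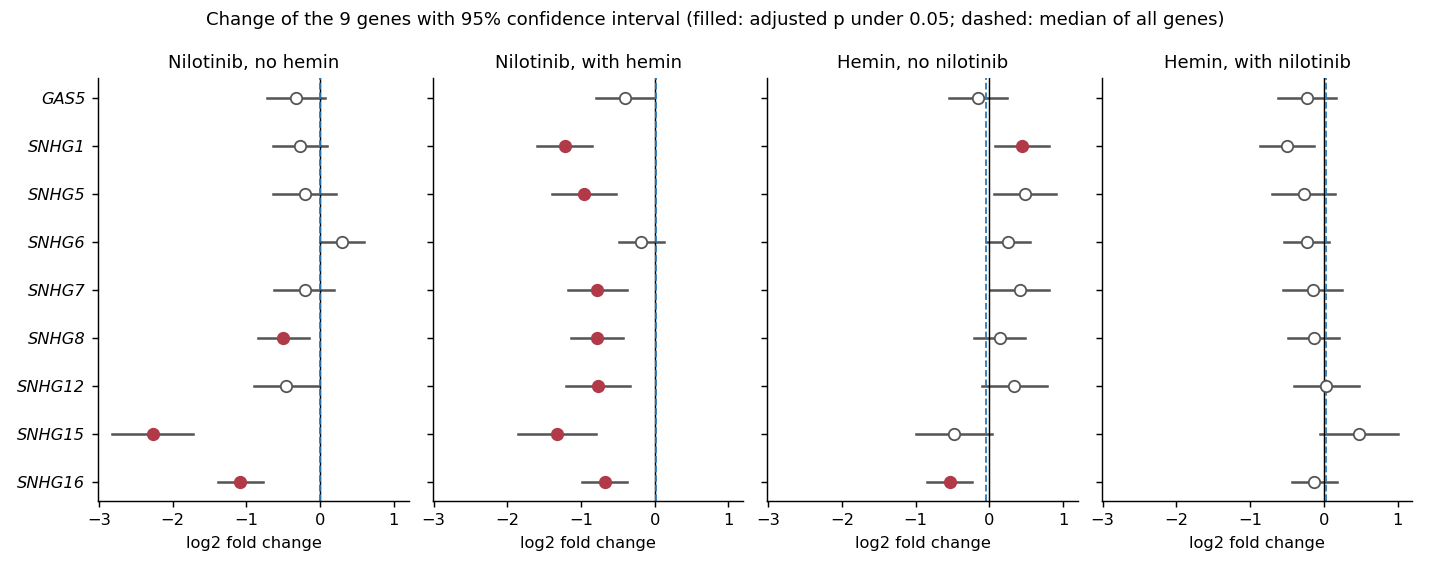
Log2 fold change (horizontal axes) of each host in 4 comparisons, with its 95% interval as a line, filled points for adjusted p under 0.05 and the median of all genes tested as a dashed line. Nilotinib lowers 3 hosts without hemin and 7 with hemin, whereas under hemin most intervals include 0.

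Hemin in cells without nilotinib (hemin DMSO against mock DMSO) moved 2 hosts past the threshold, in opposite directions. SNHG1 rose by 0.44 ± 0.17, 1.36-fold (adjusted p = 0.0381 by edgeR), and SNHG16 fell by 0.53 ± 0.14, 1.45-fold (adjusted p = 0.00502 by edgeR). This compares with 53.6% of all genes called, 25.7% higher and 27.8% lower. SNHG5 (0.48, adjusted p = 0.0537 by edgeR) and SNHG7 (0.41, adjusted p = 0.0796 by edgeR) lay just outside the threshold, and the 3 libraries of SNHG7 with hemin were all above those without. SNHG12 (0.34), SNHG6 (0.25), SNHG8 (0.14), GAS5 (-0.15) and SNHG15 (-0.48) did not pass the test. Hosts without overlap were 1 higher and 1 lower, against 29.8% and 32.9% of genes (62.7% in either direction). The rise of SNHG1 was weakly held: it did not pass when any library other than hemin DMSO replicate 1 was left out (adjusted p of 0.0674 to 0.258 by edgeR). Without that replicate, 4 hosts were higher (SNHG1, SNHG5, SNHG6 and SNHG12) and GAS5 changed sign to 0.07. In that fit 49.3% of all genes were called, 50.4% of these higher. The median of the hosts, 0.25, became 0 with library totals alone, where the median of all genes was -0.286 instead of -0.05.

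Hemin in cells with nilotinib (hemin nilotinib against mock nilotinib) called 0 of 9 hosts with edgeR, and also with DESeq2 and limma, where 5.8% of all genes were called, 2.28% lower and 3.52% higher. That background was unstable: the 1208 genes called became 213 when mock nilotinib replicate 2 was left out, 2793 when hemin nilotinib replicate 1 was, and the share was 0.985% within the 6 libraries of the comparison. The only host at an unadjusted p under 0.05 was SNHG1, at -0.5 ± 0.17 (adjusted p = 0.0967 by edgeR). Without hemin nilotinib replicate 1, the library with the highest SNHG1 of its group, SNHG1 fell by 0.63 (adjusted p = 0.024 by edgeR). GAS5, SNHG6 and SNHG8 had every hemin nilotinib library below every mock nilotinib library, against 11.6% of genes (23.3% in either direction), at log2 fold changes of -0.23, -0.23 and -0.14. The 95% intervals of the remaining hosts ran from -0.7 at SNHG5 to 1.01 at SNHG15.

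Whether the nilotinib effect differed between the hemin and the mock groups was tested as an interaction. For it 30.1% of all genes were called, 13% lower and 17.1% higher. Hemin and any longer time since nilotinib was added cannot be told apart in this test. SNHG1 differed by -0.95 ± 0.24 (adjusted p = 0.00823 by edgeR), from a nilotinib effect of -0.27 without hemin to one of -1.22 with it. SNHG15 differed the other way, by 0.96 ± 0.35 (adjusted p = 0.0487 by edgeR), from -2.27 to -1.32. The difference of SNHG15 no longer passed in 8 of the 12 fits that left out a library, nor with RLE or upper-quartile scaling. It was smallest, 0.66, when hemin nilotinib replicate 1 was left out, and greatest, 1.2, when hemin DMSO replicate 2 was. The difference of SNHG1 passed in all 12 and with both scalings. SNHG5 (-0.75, adjusted p = 0.056 by edgeR), SNHG6 (-0.48, 0.0798), SNHG7 (-0.56, 0.127) and SNHG16 (0.41, 0.14) did not pass. With the replicate number as a block, SNHG5 (-0.73, adjusted p = 0.0102 by edgeR) and SNHG7 (-0.58, adjusted p = 0.0171 by edgeR) passed and SNHG15 (0.93, adjusted p = 0.0542 by edgeR) did not. Without a block SNHG5 also passed with DESeq2 (-0.81, adjusted p = 0.0329 by DESeq2), RLE factors (-0.81, adjusted p = 0.0418 by edgeR) and upper-quartile factors (-0.87, adjusted p = 0.0364 by edgeR). SNHG7 also passed when hemin nilotinib replicate 3 was left out (-0.77, adjusted p = 0.0196 by edgeR). The larger number of hosts that fell with hemin is therefore not by itself a difference between the settings. For SNHG5 and SNHG7 the test of it depended on the processing and the libraries used. The nilotinib and hemin comparisons share groups (hemin DMSO enters both of those in which SNHG1 moved), and their values are set side by side here without being counted as separate evidence.

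The other noncoding snoRNA hosts, 17 of which were tested, gave 4 lower and 1 higher with nilotinib alone and 8 lower and 2 higher with nilotinib and hemin, at medians of -0.14 and -0.44. C6orf48 is among these 17, though the annotation gives it as protein-coding. For this list and those below, the shares of all genes were 21.8% lower and 20.7% higher with nilotinib alone. They were 31.8% and 32.4% with nilotinib and hemin, 27.8% and 25.7% under hemin alone, and 2.28% and 3.52% under hemin with nilotinib. SNHG4 fell by 1.72 ± 0.19 without hemin (adjusted p = 2.14e-06 by edgeR), though 14% of its exon length is shared with MATR3 on the same strand. DANCR, the host of an H/ACA snoRNA and a lncRNA linked to the undifferentiated state, fell by 1.5 ± 0.17 with hemin (adjusted p = 1.35e-06 by edgeR). SNHG10, which shares 20.1% of its exon length with GLRX5 on the opposite strand, rose by 0.78 and 0.92 in these comparisons. Under hemin alone 6 of the 17 rose, SNHG21 by 1.51, with 72.9% of its exons shared with another noncoding gene. With nilotinib present 2 rose under hemin, SNHG3 by 0.85. The protein-coding hosts gave 9 of 17 lower without hemin, and 7 lower and 2 higher with hemin. HSPA9, the mitochondrial HSP70, led both, at -2.17 and -2.1, while PRRC2A rose by 0.54 with hemin. Under hemin alone HSPA8, the constitutive cytosolic HSP70, rose by 2.69 and NCL, the nucleolar protein nucleolin, fell by 1.25.

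Ribosomal protein genes and translation factors are the best known carriers of TOP starts. With nilotinib alone, of 79 cytosolic ribosomal protein genes, 3 rose (RPS15 most, by 0.45) and 3 fell (RPL17 most, at -0.6), at a median of 0.05. With upper-quartile scaling, which moved the median of all genes from 0 to 0.113, 7 rose and those that had fallen no longer passed. With hemin present nilotinib lowered 64 of 79, RPL27 most, at -1 ± 0.15 (adjusted p = 1.85e-05 by edgeR), at a median of -0.5, and 42 with library totals alone. Hemin alone raised 51 of 79, RPS26 most, by 0.86, at a median of 0.44, and this became 16 with library totals alone and 69 with upper-quartile factors. The interaction called 41 of 79 lower, RPS29 most, at -0.98, against 23 with library totals alone and 62 with upper-quartile factors. Of 16 translation factors listed for TOP starts, 14 of which had one in the annotation by the rule above, nilotinib lowered 1 without hemin (EIF3A, at -0.86) and 8 with hemin (EIF3E most, at -0.73), and raised EEF1D with hemin by 0.34. Hemin alone raised 2 (TPT1 most, by 0.58) and lowered 2 (EIF3A most, at -0.47). With library totals alone, the hemin-alone medians of translation factors (-0.11), protein-coding hosts (-0.1), snoRNA particle proteins (-0.09), assembly factors (-0.14) and decay factors (-0.07) turned from above 0 to below it.

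Most mRNAs of proteins that package snoRNAs fell with nilotinib alone, and the proteins themselves were not measured here. Of the mRNAs of the 8 core proteins of snoRNA particles 7 fell and the other did not pass, at a median of -0.79. GAR1 of the H/ACA particle was lowest, at -1.07 ± 0.18 (adjusted p = 0.000207 by edgeR). With hemin 5 fell and 2 rose, at a median of -0.66, with NOP58 of the box C/D particle at -1.82 and GAR1 at 0.53. Hemin alone raised NOP58 by 1.34 and GAR1 fell by 1.41. Assembly factors of these particles were lower for 8 of 9 without hemin and 5 of 9 with hemin, with RUVBL2, an ATPase of the R2TP complex, at -1.37 and -1.68. Hemin raised 3 of them, RUVBL2 by 0.68, and NAF1 fell by 0.55. NOP56, NOP58 and DKC1 of the core proteins are also among the protein-coding hosts above, so the counts of these lists are not separate.

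Factors of nonsense-mediated decay showed no common direction. Without hemin, nilotinib raised 2 of 15 (UPF2 by 0.48) and lowered 3 (MAGOHB, of the exon junction complex, at -0.74). With hemin it raised 3 (SMG9, a partner of the SMG1 kinase, by 0.94) and lowered 4 (MAGOHB at -1.35), and under hemin alone 5 rose, MAGOHB by 1.25, and 5 fell, SMG9 by 1.18. Over all genes 42.5% were called with nilotinib alone, 64.2% with nilotinib and hemin and 53.6% under hemin alone. Of 9 regulators of TOP mRNAs, nilotinib lowered 4 and raised 2 without hemin, and lowered 3 and raised 3 with hemin. EIF4EBP1, which encodes a repressor of translation controlled by mTOR, had -1.52 ± 0.15 and -1.78 ± 0.15 in these comparisons (adjusted p = 8.91e-07 and 6.87e-08 by edgeR). Its relative EIF4EBP2 rose by 0.89 without hemin. LARP1, which binds the TOP tract, rose by 1.22 ± 0.13 with hemin (adjusted p = 5.91e-07 by edgeR) and fell by 0.87 under hemin alone, and LARP4 rose by 1.13 under hemin alone.

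The genes most like the 9 hosts in their pattern over the 12 libraries were sought among 12486 genes with a mean of at least 100 counts. Likeness was the root mean square difference in log2 CPM between a gene, centred on its own mean, and the mean of the 9 centred hosts. RWDD1 (0.097), PRELID3B (0.098), TMUB1 (0.108), SPCS1 (0.111) and PRKAR2A (0.112) were closest, all protein-coding. Their nilotinib changes lay between -0.71 and -0.47 without hemin and between -0.84 and -0.64 with hemin. Of the hosts themselves SNHG8 was nearest to their common pattern, at 0.121, and SNHG15 was farthest, at 0.677, followed by SNHG6 at 0.382.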

How the data were processed

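RNA from K562 cells was sequenced as 150-base paired-end reads in 12 libraries. The authors deposited raw read counts per gene from a sequencing service, which were the input of the main tests. The FPKM per gene that the authors also deposited were used in 1 alternative. A table of mean FPKM per group was not used. The submitters' processing notes name GRCh38.p12, DESeq and DESeq2, and the aligner, counter and strand setting are not given in the sources used here. All 58735 identifiers and spans matched GENCODE 29.

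Low counts were filtered with filterByExpr (count of 10 and total of 15 at least). Libraries were scaled by TMM and fitted with edgeR 4.0.16 (R 4.3.3) by quasi-likelihood, with 1 mean per group over all 12 libraries and no block. All tests are two-sided, 20821 genes were tested, and a gene was called at a Benjamini-Hochberg adjusted p under 0.05. Totals of 33457078 to 50506990 counts put the level of 3 counts at 0.054 to 0.0957 CPM, and this covers counting error only. Alternatives were DESeq2 1.42.0, RLE, upper-quartile or no factors, other count filters, a 2-fold minimum, limma-trend 3.58.1 on log2(FPKM + 1), a block for replicate number, fits within the 6 libraries of a comparison, and leaving out libraries in turn. The fits of a comparison's libraries alone with the block were added after the data were seen. The members and lists were chosen with earlier results of these data known, and 2 genes of the marker lists are not reported here. From each list, the called gene with the largest rise and with the largest fall in a comparison was named, among genes with a mean of at least 100 counts. All 9 hosts were named in every comparison, and the 5 genes of most similar profile were taken on log2 CPM with a prior count of 2. Same-numbered libraries of mock DMSO and mock nilotinib deviated together from their group means (r of 0.155 to 0.215). Those of mock and hemin nilotinib did so too (0.441 to 0.478). The numbers of the labels were taken to pair these groups, where every such correlation was over 0.1, and not the others. The main tests did not use this pairing, and only the fits with a block did. The block over all 12 libraries also spanned the groups not taken as paired. In no pair of replicates did counts differ by as little as sampling noise (chi-square per degree of freedom of 13.6 to 249). On data simulated for nilotinib with hemin over 20821 genes, edgeR recovered 60 of 100 genes changed 2-fold and 98 of 100 changed 4-fold, with 5 false calls. The simulation gave every gene the same spread and changed no other genes, unlike the data. Python 3.11.15 (pandas 2.3.3, numpy 2.4.6, matplotlib 3.10.9) served for sequences and plots.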

Additional observations from a re-analysis of the deposited data

Results flagged for a closer look

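2 results were marked because the effect of nilotinib differed between cells with and without hemin by the interaction test. Hemin and any longer time since nilotinib was added cannot be told apart in it. For SNHG1 the difference was -0.95 on the log2 scale (nilotinib effect with hemin minus that without), with an adjusted p of 0.00823 by edgeR, and all 3 hemin nilotinib libraries lay below all 3 hemin DMSO libraries, while the mock groups overlapped. For SNHG15 it was 0.96, with an adjusted p of 0.0487 by edgeR, and nilotinib libraries lay below DMSO libraries both with and without hemin. The erythroid marker sum rose with nilotinib in both settings, and its part in either difference was not tested.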

How the results depend on the processing

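The falls of SNHG15 and SNHG16 with nilotinib alone passed under every setting tried, and the 7 falls with nilotinib and hemin passed under every setting but the 2-fold minimum. In fits with 1 library left out, hosts lower ranged from 2 to 3 with nilotinib alone and from 7 to 9 with nilotinib and hemin. Hosts higher under hemin alone ranged from 0 (without mock DMSO replicate 1, 2 or 3 or hemin DMSO replicate 2 or 3) to 4 (without hemin DMSO replicate 1), and hosts lower from 1 to 2. In the interaction, hosts higher ranged from 0 to 1 and lower from 1 to 3, and under hemin with nilotinib hosts lower ranged from 0 to 1. Genes called under hemin with nilotinib, 1208, ranged from 213 (without mock nilotinib replicate 2) to 2793 (without hemin nilotinib replicate 1). Under hemin alone, hosts higher, 1 as reported, were 2 with DESeq2, RLE factors or 10 counts in every library, 3 within the libraries of the comparison, 4 with upper-quartile factors or within those libraries with the block, and 0 with library totals or a 2-fold minimum. Hosts lower, 1 as reported, were 2 with library totals, with all genes of at least 1 count or within the libraries with the block, and 0 with the 2-fold minimum. In the interaction, hosts higher, 1 as reported, were 0 with RLE or upper-quartile factors, 10 counts in every library, the block, limma or the 2-fold minimum, and 2 with library totals. Hosts lower there, 1 as reported, were 2 with DESeq2, RLE factors or all genes of at least 1 count, 3 with upper-quartile factors or the block, and 0 with the 2-fold minimum. With nilotinib alone, 1 host was higher with upper-quartile factors or within the libraries of the comparison, with or without the block, and hosts lower within those libraries were 5 without the block and 7 with it. With nilotinib and hemin, GAS5 was also lower with DESeq2 or RLE factors, and 2 hosts (SNHG1 and SNHG15) were lower at the 2-fold minimum. Under hemin with nilotinib 1 host was lower with all genes of at least 1 count. Genes called under hemin with nilotinib were 1974 with DESeq2, 1987 with all genes of at least 1 count, 183 within the libraries of the comparison, 741 with limma and 565 at the 2-fold minimum. That minimum left 4872 genes with nilotinib alone, 6474 under hemin alone and 4073 in the interaction. With library totals the share of called genes that were higher went from 48% to 33.9% under hemin alone, from 60.7% to 49.2% under hemin with nilotinib and from 56.7% to 73.3% in the interaction. It went to 46.3% in the interaction with upper-quartile factors and, with limma, to 48.6% under hemin with nilotinib and 46.4% in the interaction. The median of all genes in the interaction was 0.272 with library totals. Signs changed for values that passed no test in any of these fits: under hemin alone SNHG8 (-0.11 with library totals, -0.08 to 0.31 with a library left out) and GAS5 (-0.36 to 0.07), under hemin with nilotinib SNHG12 (-0.01 with library totals and with limma, -0.23 to 0.18) and in the interaction GAS5 (0.13 with library totals, -0.3 to 0.13). A replicate block over all 12 libraries, fitted as an alternative, gave other calls for 3 hosts. SNHG5 (0.47, adjusted p = 0.00969 by edgeR) and SNHG7 (0.41, adjusted p = 0.00949 by edgeR) also rose under hemin alone, giving 3 hosts higher. In the interaction SNHG5 (-0.73) and SNHG7 (-0.58) passed with the block and SNHG15 (0.93, adjusted p = 0.0542 by edgeR) did not, and the block over all libraries changed no other call of a host. For hemin DMSO against mock DMSO, where the correlations of same-numbered libraries were 0.0943 to 0.179, all 3 libraries correlated best with their own number, and for hemin DMSO against hemin nilotinib (-0.095 to 0.281) 1 did. The cause of these changes was not tested. At 3 libraries a group, 60 of 100 simulated 2-fold changes were recovered for nilotinib with hemin. The simulation changed only 100 genes 2-fold and 100 genes 4-fold of 20821, whereas 64.2% of genes were called in the data. It therefore does not measure the power for the hosts, and an uncalled host is not shown to be unchanged.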
